A study of Mus musculus with 12 samples.

Results

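Imprinted genes are expressed mainly from the copy inherited from the mother or mainly from that inherited from the father, and many of them set how far tissues grow. The genes described here are 10 imprinted regulators of growth: Igf2, Igf2r, Grb10, Cdkn1c, Plagl1, Peg3, Mest, Dlk1, Peg10 and H19. A gene was included where the array held a transcript cluster (a set of probes summarised to 1 value) listed for that gene alone, which left 9 of the 10 among 19752 genes measured. Each of the 9 had exactly 1 such cluster, and all 9 are kept whatever their level. Had a gene had several, the one would have been chosen by its mean log2 intensity over the 12 arrays, and no other measured value enters the rule. H19 had no cluster of its own and is not given a value. The list was drawn up with earlier results of these arrays known, so the counts below describe these genes and are not an independent sample of imprinted genes.

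The study measured RNA of whole tibialis anterior muscle, a muscle of the shin, on 12 arrays from C57BL/6 mice aged 8 weeks. The muscle was injured on day 0 with cardiotoxin, a snake venom protein that destroys muscle fibres and starts their regeneration, and every mouse received diphtheria toxin. The treatment was amphiregulin (AREG), a ligand of the EGF receptor, and its vehicle was phosphate-buffered saline (PBS). There were 4 groups of 3 arrays. The first pair, AREG and PBS, came from day 4 and from mice that lacked the diphtheria toxin receptor (Foxp3-DTR-), and the second pair from day 8 and from mice that had it (Foxp3-DTR+). Foxp3-DTR+ mice carry the receptor under control of Foxp3, the defining transcription factor of regulatory T cells, so that the toxin is meant to remove those cells there and to leave them in Foxp3-DTR- mice. Day and genotype changed together and cannot be told apart, and no label states whether the 3 arrays of a group are different animals, so the p-values cover only the spread between these samples. With whole muscle, fewer cells of a type and less RNA per cell cannot be told apart, and 3 arrays per group limit the precision.

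Imprinted growth genes are abundant in fetal and young tissues and decline as growth ends, and several of them, Igf2 and Dlk1 included, are known to be expressed again while muscle regenerates. Igf2 encodes a growth factor, Igf2r a receptor that carries this factor to lysosomes for degradation, and Grb10 an adaptor that dampens signals of the insulin and IGF1 receptors. Cdkn1c encodes p57, a cell cycle inhibitor, while Plagl1 and Peg3 encode zinc finger proteins, and the Plagl1 protein is known to bind and regulate other imprinted genes. In mice Igf2, Plagl1, Peg3, Mest, Dlk1 and Peg10 are expressed mainly from the paternal copy, and Igf2r, Grb10 and Cdkn1c mainly from the maternal copy, Grb10 with the opposite pattern in neurons.

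Mest and Igf2 each harbour a microRNA gene, and these sequences are shown because the array has a separate cluster for each of them, which allows host and microRNA to be compared. They are the mature RNAs of RefSeq for GRCm38.p6, of Mir335 within Mest on chromosome 6 (plus strand) and of Mir483 within Igf2 on chromosome 7 (minus strand), written 5′ to 3′ with the seed, bases 2 to 8, in capitals. The 4 seeds all differ.
mmu-miR-335-5p: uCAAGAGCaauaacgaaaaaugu
mmu-miR-335-3p: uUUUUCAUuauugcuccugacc
mmu-miR-483-5p: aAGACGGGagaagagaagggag
mmu-miR-483-3p: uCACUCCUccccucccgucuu

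Promoter windows, which run from 250 bases before to 50 bases after a start site, were available from RefSeq (GRCm38.p6) for 7 of the 9 measured genes, with 13 windows in all. They were searched on both strands for GGGGCCCC, a motif bound by the Plagl1 protein, and for CAGCTG, an E-box bound by MyoD, the muscle determination factor. Both motifs read the same on either strand and do not overlap each other. Windows of 2 genes held a match. The Peg3 window had 1 GGGGCCCC, which 1.08% of 32851 mouse promoter windows contained, and the most upstream of 3 Mest windows had 1 CAGCTG, which 16.3% contained. The upstream Grb10 window held neither motif but 45 CG dinucleotides, more than 98.1% of promoter windows, whose median was 7. The Peg3 and Mest windows are shown for their matches, in capitals, and the Grb10 window for its CG dinucleotides. A match is a description of the letters and not evidence of binding in this muscle.
Peg3, chr7:6730370-6730669, minus strand: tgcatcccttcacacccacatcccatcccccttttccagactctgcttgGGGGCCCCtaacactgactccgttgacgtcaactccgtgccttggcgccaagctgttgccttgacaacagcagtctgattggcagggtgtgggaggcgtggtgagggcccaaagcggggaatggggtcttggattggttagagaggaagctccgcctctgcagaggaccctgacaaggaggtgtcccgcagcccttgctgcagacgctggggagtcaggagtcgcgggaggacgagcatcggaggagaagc
Mest, chr6:30733256-30733555, plus strand: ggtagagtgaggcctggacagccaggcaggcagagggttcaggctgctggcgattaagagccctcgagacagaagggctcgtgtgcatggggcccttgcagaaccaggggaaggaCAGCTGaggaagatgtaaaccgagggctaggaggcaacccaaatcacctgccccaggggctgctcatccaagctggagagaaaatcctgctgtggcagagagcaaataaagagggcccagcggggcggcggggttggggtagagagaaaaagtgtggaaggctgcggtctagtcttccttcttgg
Grb10, chr11:12037371-12037670, minus strand: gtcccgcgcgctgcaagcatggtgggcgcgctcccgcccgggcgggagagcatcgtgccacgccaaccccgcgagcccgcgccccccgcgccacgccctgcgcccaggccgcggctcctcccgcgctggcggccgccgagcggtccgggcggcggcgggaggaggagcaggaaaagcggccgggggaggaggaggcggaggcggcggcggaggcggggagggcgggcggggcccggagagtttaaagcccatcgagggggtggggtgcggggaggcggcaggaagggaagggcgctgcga

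The arrays were alike in scale, with median intensities between 133.7 and 143.2, and Ckm, the muscle creatine kinase that marks the labelled tissue, lay at 12499 to 14851. Foxp3 itself lay at 95.6 to 107 (AREG) and 89.7 to 100.2 (PBS) in Foxp3-DTR+ muscle, and at 91.4 to 106 (AREG) and 91.0 to 102 (PBS) in Foxp3-DTR- muscle. Its change between the PBS groups, day 8 Foxp3-DTR+ minus day 4 Foxp3-DTR-, was -0.02 ± 0.11 on the log2 scale (SE, adjusted p = 0.955, limma). A loss of regulatory T cells was thus not visible in this gene of whole muscle. Foxp3 lay below the median intensity of every array, so it is a weak check of the depletion. All 9 imprinted growth genes lay above the median gene, whose mean level was 7.15 on the log2 scale. Intensities below are the deposited RMA values on a linear scale. Changes are differences of mean log2 intensity with the standard error of the limma fit, n = 3 arrays per group, and a gene is called where its p, adjusted over all 19752 genes, is under 0.05.

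**Figure D1:**
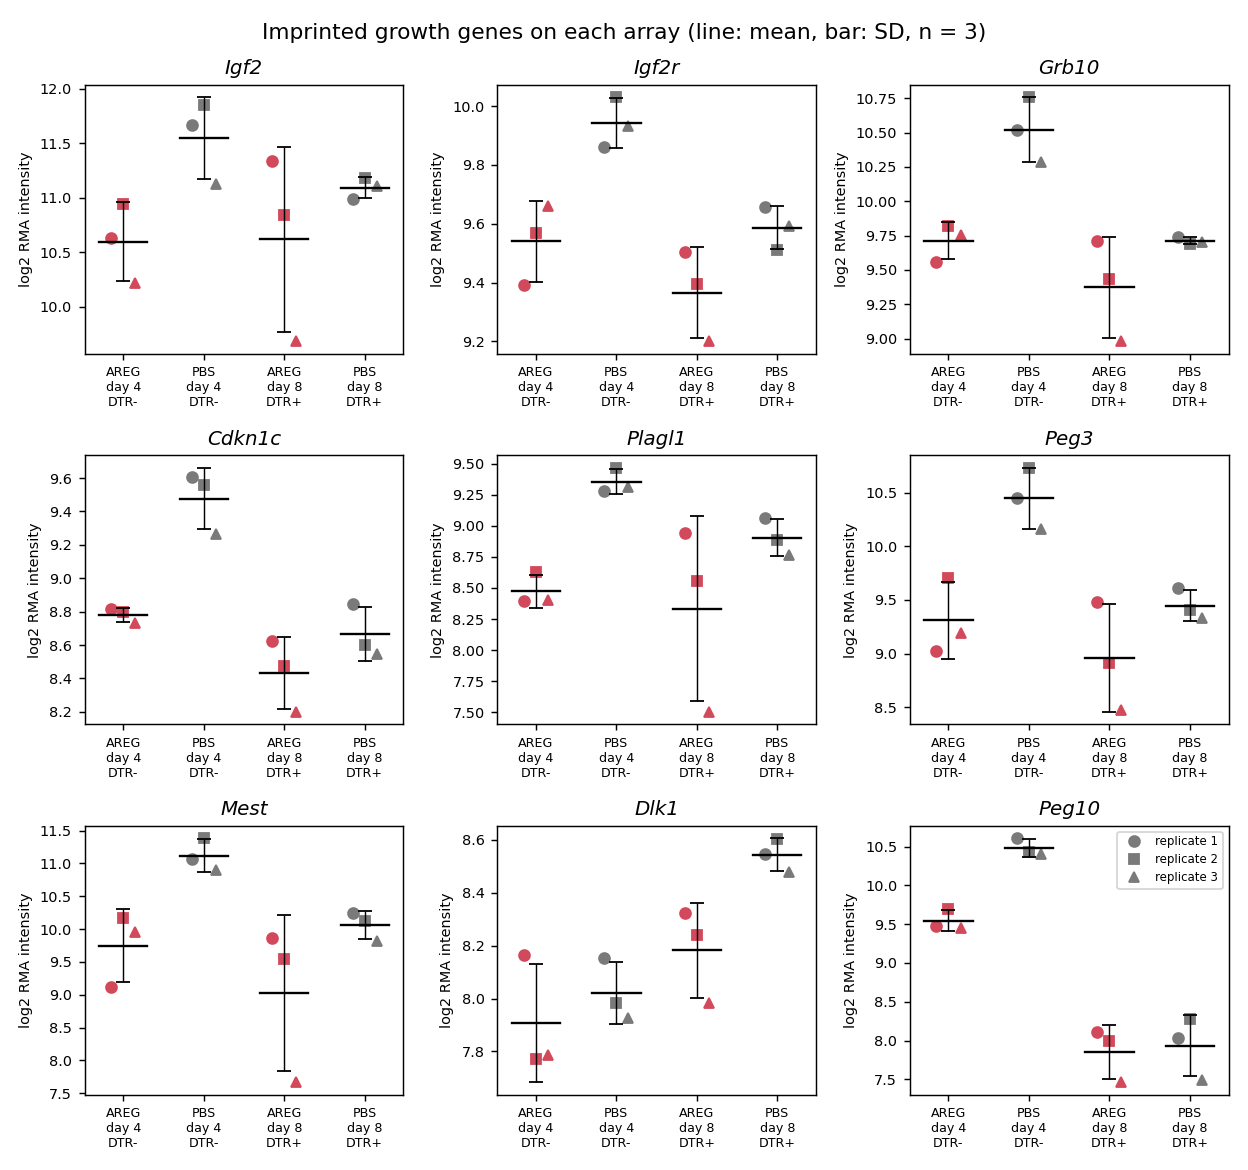
Log2 RMA intensity of the 9 genes on each of the 12 arrays (vertical axis, a scale of its own in each panel) in AREG and PBS muscle at day 4 (Foxp3-DTR-) and at day 8 (Foxp3-DTR+), with marker shapes for replicate numbers, lines for group means and bars for SD (n = 3). At day 4 the AREG arrays lie below all PBS arrays for every gene but Dlk1. At day 8 the replicate 3 array of AREG muscle is the lowest of its group in all 9 panels. Peg10 separates day 4 Foxp3-DTR- from day 8 Foxp3-DTR+ muscle.

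At day 4, with regulatory T cells meant to be present, several imprinted growth genes were lower in AREG muscle than in PBS muscle. Peg10, Cdkn1c, Grb10 and Peg3 fell, the other 5 had estimates below 0 without passing the test, and none was called higher. The share called lower was thus 4 of 9, against 2.11% of all genes. The AREG and PBS arrays did not overlap for 8 of the 9, AREG being lower in each, as held for 2379 of the 19752 genes with AREG lower and for 22.3% of all genes in either direction. The median change was -0.88, against 0.04 over all genes. Of the 6 genes expressed from the paternal copy 2 were called lower, and of the 3 expressed from the maternal copy 2 were.

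Among the genes of the IGF system, Igf2 had intensities of 1589, 1965 and 1189.9 in AREG muscle at day 4 (replicates 1, 2 and 3), against 3254, 3687 and 2232 in PBS muscle. Each AREG array was below each PBS array. The spread within groups was wide, and the change of -0.95 ± 0.31 was not called (adjusted p = 0.114, limma). Igf2r, which removes IGF2 from the cell surface, had 671, 760.1 and 809 in AREG muscle at day 4, against 930.2, 1046 and 978 in PBS muscle. Its groups did not overlap either, and its change of -0.40 ± 0.12 was not called (adjusted p = 0.0754). Grb10, the adaptor that restrains insulin and IGF1 receptor signals, had 755, 906 and 864 in AREG muscle at day 4, against 1467, 1732 and 1247 in PBS muscle. The highest AREG array was below the lowest PBS array, and Grb10 fell by 0.81 ± 0.17 on the log2 scale, 1.75-fold (adjusted p = 0.0265, limma). The growth factor, its clearance receptor and the inhibitory adaptor therefore had estimates of the same sign, of which that of Grb10 passed the test.

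Cdkn1c, the cell cycle inhibitor, had 450.4, 444 and 425 in AREG muscle at day 4, against 781, 754 and 616 in PBS muscle. The AREG arrays lay close together and well below the lowest PBS array. Cdkn1c fell by 0.70 ± 0.14, 1.62-fold (adjusted p = 0.0218, limma). Plagl1, the zinc finger regulator, had 336, 395 and 338 in AREG muscle at day 4, against 622, 708 and 636 in PBS muscle. These groups were far apart, but the change of -0.88 ± 0.25 was not called (adjusted p = 0.0687, with 1 estimate of the spread for all 4 groups). Peg3, a zinc finger protein known to mark progenitor cells between the fibres of mouse muscle, had 519.7, 837 and 587 in AREG muscle at day 4, against 1397, 1704 and 1148 in PBS muscle. Its highest AREG array, replicate 2, was below its lowest PBS array, and Peg3 fell by 1.14 ± 0.23, 2.20-fold (adjusted p = 0.0236, limma).

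Mest, a protein with the fold of a hydrolase that is known from growing tissues and expanding fat, had 554, 1157 and 989 in AREG muscle at day 4, against 2157, 2675 and 1905 in PBS muscle. The groups were apart, with replicate 1 of AREG muscle the lowest. Its change of -1.37 ± 0.41 was the largest of the 9 and was not called (adjusted p = 0.0881). Dlk1, a membrane protein with EGF-like repeats that holds back the formation of fat cells, had 287, 218 and 221 in AREG muscle at day 4, against 285, 253 and 243 in PBS muscle. Here the groups overlapped through replicate 1, and the change was -0.11 ± 0.13 (adjusted p = 0.771). Peg10, which derives from a retrotransposon and is needed for the mouse placenta, had 715, 832 and 703 in AREG muscle at day 4, against 1561, 1378 and 1359.6 in PBS muscle. Each AREG array was far below each PBS array, and Peg10 fell by 0.94 ± 0.19, 1.91-fold (adjusted p = 0.0260, limma).

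Same-numbered AREG and PBS arrays deviated together at day 4, although the labels give no source for a pairing. With the number as a block in limma, the calls also covered Mest (adjusted p = 0.0305) and Plagl1 (adjusted p = 0.0254), 6 of the 9 in all. The calls depended on single arrays. None of the 9 was called when AREG replicate 1, AREG replicate 3, PBS replicate 1 or PBS replicate 2 of day 4 was left out, while 7 were called without AREG replicate 1 of day 8 and 8 without AREG replicate 3 of day 8. The estimates of all 9 were below 0 in each of these fits, and those of the 4 called genes ranged from -0.87 to -1.01 for Peg10, from -0.63 to -0.80 for Cdkn1c, from -0.69 to -0.93 for Grb10 and from -0.997 to -1.34 for Peg3.

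Other cell states moved with these genes at day 4. The 9 markers of newly formed fibres, such as the embryonic myosin Myh3 and the fusion protein Mymk, had a mean log2 intensity of 10.22 to 10.86 in AREG muscle and 11.16 to 11.78 in PBS muscle. Of these markers 5 were called lower, Mymk among them, while Myh3 was not called (adjusted p = 0.0661, limma). Of 7 measured markers of dividing cells 5 were called lower (6.56 to 6.89 in AREG muscle, 7.58 to 7.95 in PBS muscle), of 10 macrophage markers 4 (8.64 to 8.94 and 9.52 to 9.94) and of 9 markers of satellite cells and myoblasts 2 (7.77 to 7.97 and 8.08 to 8.52). Fibro-adipogenic progenitors, the connective tissue cells of muscle, had 0 of 7 markers called (9.40 to 9.74 and 9.92 to 10.07). Of the 5 adipocyte markers 2 were called higher, where 2.90% of all genes were called in either direction. None of 10 mature fibre, 6 endothelial, 4 tenocyte and 4 regulatory T cell markers was called. All 10 mature fibre, all 6 endothelial and all 4 regulatory T cell estimates were above 0, and 3 of the 4 tenocyte ones. Of all genes 40.9% were below 0. The part of these cells in the fall of the imprinted genes was not tested.

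At day 8 in Foxp3-DTR+ mice, none of the 9 genes was called between AREG and PBS muscle, where 0.00506% of all genes (1 gene) were called in either direction and 7.62% had an unadjusted p under 0.05. With an unadjusted p under 0.05 there were 4 of the 9, namely Dlk1, Mest, Plagl1 and Peg3. All 9 estimates were below 0, with a median of -0.36 against 0.01 over all genes. The count of 4 and much of the median rested on 1 array, replicate 3 of AREG muscle. Without it 0 of the 9 had an unadjusted p under 0.05 (4.87% of all genes did), 8 estimates were below 0 with Peg10 at 0.12, and the median was -0.14, against -0.02 over all genes. Groups did not overlap for Dlk1 and Igf2r, AREG being lower, as held for 7.14% of all genes.

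Dlk1 had 321, 302 and 253 in AREG muscle at day 8, against 374, 389 and 357 in PBS muscle. Its change of -0.36 ± 0.13 had the smallest unadjusted p of the 9 and was not called (adjusted p = 0.630, limma). Without replicate 3 of AREG muscle the change of Dlk1 was -0.26. Igf2r had 726, 673 and 588 in AREG muscle at day 8, against 808, 729 and 772 in PBS muscle. The gap between its groups was narrow, and its change was -0.22 ± 0.12 (adjusted p = 0.694), or -0.14 without replicate 3 of AREG muscle.

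The other 7 genes overlapped at day 8. Mest had 936, 749 and 203 in AREG muscle, against 1209, 1112 and 905 in PBS muscle, a change of -1.03 ± 0.41 (adjusted p = 0.640). Replicate 3 of AREG muscle was far below the rest, and without it the change of Mest was -0.35. Plagl1 had 492, 375 and 181 in AREG muscle at day 8, against 536, 473 and 436 in PBS muscle, a change of -0.57 ± 0.25 (adjusted p = 0.644). Without that array it was -0.16. The same array was the lowest of its group for Igf2, with 2591, 1831 and 822 in AREG muscle at day 8, against 2039, 2322 and 2211 in PBS muscle. Igf2 changed by -0.47 ± 0.31 with that array (adjusted p = 0.758) and by -0.01 without it. Peg3 had 714, 483 and 356 in AREG muscle at day 8, against 780.1, 677 and 645 in PBS muscle, a change of -0.49 ± 0.23 (adjusted p = 0.652), or -0.25 without that array. Replicate 1 of AREG muscle was within the PBS range for Mest, Plagl1 and Peg3 and above it for Igf2.

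Grb10, Cdkn1c and Peg10 were closer between the treatments. Grb10 had 837, 691 and 505 in AREG muscle at day 8, against 855, 827 and 836 in PBS muscle, and a change of -0.34 ± 0.17 (adjusted p = 0.658), or -0.14 without replicate 3 of AREG muscle. The PBS arrays of Grb10 were nearly equal, with AREG replicate 1 within their range and AREG replicates 2 and 3 below it. Cdkn1c had 395, 356 and 294 in AREG muscle at day 8, against 461, 389 and 373 in PBS muscle, and a change of -0.23 ± 0.14 (adjusted p = 0.732), or -0.11 without that array. Peg10 had 277, 254 and 176 in AREG muscle at day 8, against 262, 309.9 and 181 in PBS muscle, and a change of -0.08 ± 0.19 (adjusted p = 0.944). The treatments could not be separated for Peg10 at this day, the 95% interval of its change running from -0.48 to 0.32.

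Replicate 3 of AREG muscle was the lowest of its group for 9 of 9 genes at day 8, and it was the lowest for 33.5% of all genes. The same array was the lowest of its group for the means of newly formed fibre, fibro-adipogenic progenitor, macrophage, dividing cell, tenocyte and, by a narrow margin, mature fibre markers, and not for those of endothelial, adipocyte, regulatory T cell or satellite cell markers. In AREG muscle at day 8, the marker means ranged from 8.96 to 9.92 for newly formed fibres, from 8.52 to 9.77 for fibro-adipogenic progenitors and from 8.48 to 9.70 for macrophages, against 9.92 to 10.09, 9.70 to 9.91 and 9.50 to 9.98 in PBS muscle. No marker of these 3 lists was called at day 8. The part of that array's cell content in the values of the imprinted genes was not tested.

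Over both settings, the mean of the day 4 and day 8 AREG effects was called for 5 of the 9, all lower, against 2.99% of all genes called lower. Peg3 fell by 0.82 ± 0.16 (adjusted p = 0.0199), Grb10 by 0.57 ± 0.12 (adjusted p = 0.0211) and Cdkn1c by 0.46 ± 0.10 (adjusted p = 0.0218, limma). Plagl1 fell by 0.73 ± 0.18 (adjusted p = 0.0372) and Mest by 1.20 ± 0.29 (adjusted p = 0.0384). Peg10 and Igf2r just missed the threshold at -0.51 ± 0.13 (adjusted p = 0.0503) and -0.31 ± 0.08 (adjusted p = 0.0506). Igf2 had -0.71 ± 0.22 (adjusted p = 0.0872) and Dlk1 -0.24 ± 0.09 (adjusted p = 0.179). With the replicate number as a block 8 were called, adding Peg10 (adjusted p = 0.0129), Igf2 (adjusted p = 0.0403) and Igf2r (adjusted p = 0.0385). The labels give no source for this block, and same-numbered arrays did not deviate together at day 8. Leaving out single arrays gave between 0 and 8 calls. None of the 9 was called without AREG replicate 1 of day 4, PBS replicate 2 of day 4 or PBS replicate 1 of day 8, and 8 were called without AREG replicate 1 of day 8. The number was 1 without PBS replicate 3 of day 8, 2 without AREG replicate 3 of day 4, and 3 without PBS replicate 1 of day 4, PBS replicate 3 of day 4 or PBS replicate 2 of day 8.

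Whether the AREG effect differed between the settings was tested as the day 8 effect minus the day 4 effect. None of the 9 was called, as none of all genes was (0.00%), and 5.87% of all genes had an unadjusted p under 0.05. Peg10 had the largest difference, 0.85 ± 0.27 on the log2 scale (unadjusted p = 0.00609, adjusted p = 0.630, limma), from a day 8 effect of -0.08 and a day 4 effect of -0.94. Cdkn1c also had an unadjusted p under 0.05 (0.46 ± 0.19, adjusted p = 0.814). Of the others 6 were between 0.18 and 0.65, and Dlk1 had -0.25 ± 0.19. A fall of Peg10 at day 4 alone is thus not shown.

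**Figure D2:**
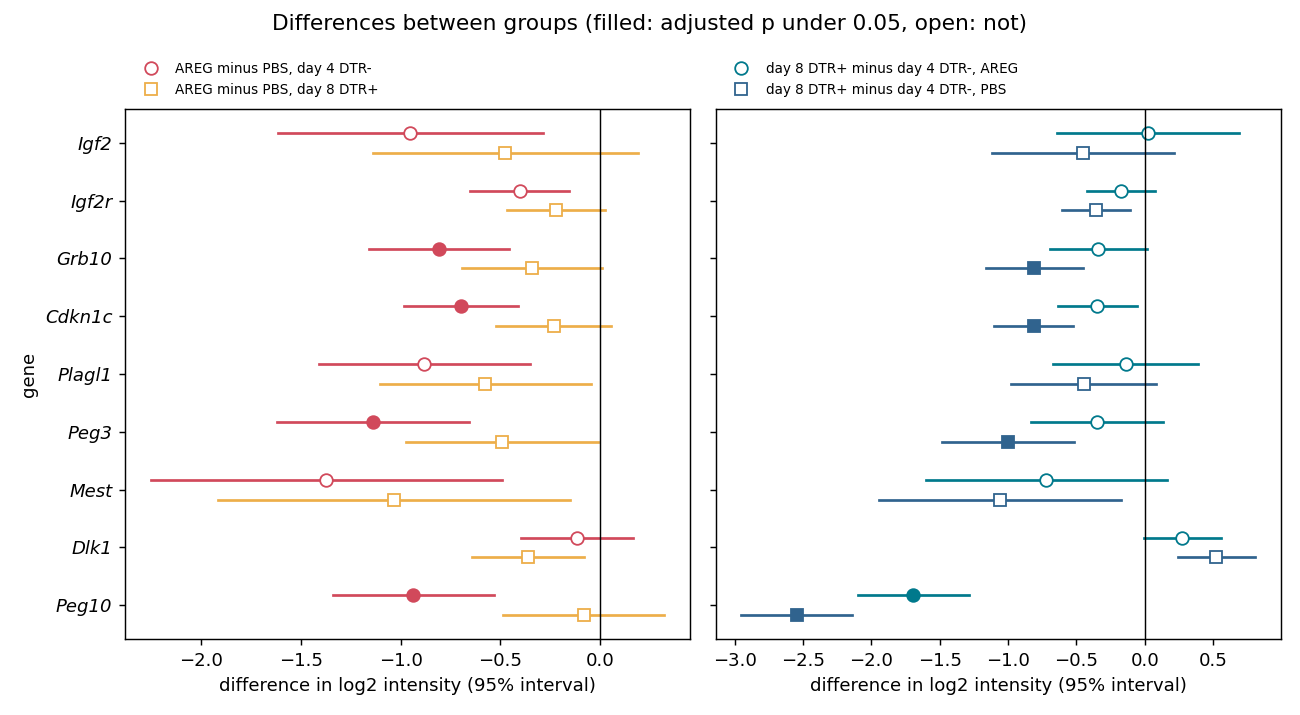
Differences in log2 intensity with 95% intervals for the 9 genes: left, AREG minus PBS at day 4 (Foxp3-DTR-, circles) and at day 8 (Foxp3-DTR+, squares). Right, day 8 Foxp3-DTR+ minus day 4 Foxp3-DTR- in AREG muscle (circles) and PBS muscle (squares), where filled symbols have an adjusted p under 0.05 and Peg10 stands apart at -1.69 and -2.55.

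Between day 4 Foxp3-DTR- and day 8 Foxp3-DTR+ muscle, Peg10 had by far the largest change of the 9. In PBS muscle it fell by 2.55 ± 0.19 on the log2 scale at day 8 in Foxp3-DTR+ mice relative to day 4 in Foxp3-DTR- mice, a 5.84-fold difference (adjusted p = 2.75e-06, limma), and was the fifth of all genes by p. In AREG muscle it fell by 1.69 ± 0.19, 3.23-fold (adjusted p = 0.000257). In the intensities given above, the highest day 8 array (309.9) was below the lowest day 4 array (703). Peg10 was called in both comparisons under each of 20 settings, with changes from -2.72 to -2.33 in PBS muscle and from -1.82 to -1.49 in AREG muscle. The range of its 4 group means, 2.63, was wider than that of 99.9% of genes.

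In PBS muscle 4 of the 9 were called lower at day 8 Foxp3-DTR+ than at day 4 Foxp3-DTR-, against 1.15% of all genes. Besides Peg10 these were Cdkn1c, which fell by 0.81 ± 0.14 (adjusted p = 0.00358), Grb10 by 0.81 ± 0.17 (adjusted p = 0.0155) and Peg3 by 1.00 ± 0.23 (adjusted p = 0.0284, limma). The 2 groups did not overlap for 7 genes with day 8 lower, which held for 14.2% of all genes, and for Dlk1 with day 8 higher, which held for 9.17%. Mest had -1.06 ± 0.41 (adjusted p = 0.269), Igf2r -0.35 ± 0.12 (adjusted p = 0.164) and Plagl1 -0.45 ± 0.25 (adjusted p = 0.479). Igf2 overlapped between the days, with -0.45 ± 0.31 (adjusted p = 0.575). Dlk1 had the opposite sign at 0.52 ± 0.13 (adjusted p = 0.0526), all its PBS arrays of day 8 being above those of day 4. Dlk1 was called higher under 9 of 20 settings, and 1.19% of all genes were called higher in the fit reported. Grb10 and Peg3 were not called, leaving 2, when PBS replicate 1 or 2 of day 4 or any PBS replicate of day 8 was left out, while Cdkn1c was called under all 20 settings.

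In AREG muscle the same comparison of days called Peg10 alone, 1 of the 9, against 0.192% of all genes called lower. Cdkn1c did not overlap either, at -0.35 ± 0.14 (adjusted p = 0.362), as held with day 8 lower for 8.97% of all genes. Mest had -0.72 ± 0.41 and Peg3 -0.35 ± 0.23, and Igf2, at 0.02 ± 0.31, had an estimate near 0. Replicate 3 of AREG muscle at day 8 lowered these estimates. Without that array Mest had -0.04, Peg3 -0.11, Cdkn1c -0.23 and Igf2 0.49, none of them called, and the Cdkn1c groups still did not overlap. Dlk1 again had the opposite sign, 0.28 ± 0.13 (adjusted p = 0.499). The AREG and PBS versions of this comparison have no array in common, but each shares its arrays with the treatment comparisons above. Markers of newly formed fibres also changed from day 4 Foxp3-DTR- to day 8 Foxp3-DTR+. Of these 9 markers, 6 were called lower in PBS muscle and 3 in AREG muscle, with median changes of -1.44 and -0.95. Satellite cell and myoblast markers had 3 of 9 called lower in PBS muscle and 0 of 9 in AREG muscle, and 1 of 7 dividing cell markers was lower in PBS muscle. Il2ra and Ctla4, 2 of the 4 regulatory T cell markers and also found on activated T cells, rose by 0.99 ± 0.11 and 0.61 ± 0.12 in PBS muscle. Their part in the changes of the imprinted genes was not tested.

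The order of the group means put PBS muscle of day 4 first for 8 of the 9 genes. Peg10 and Cdkn1c went on with AREG day 4, PBS day 8 and AREG day 8. Among these neighbours all Peg10 groups were apart except the day 8 groups, while for Cdkn1c the first step alone was free of overlap. Mest, Grb10, Peg3, Plagl1 and Igf2r continued with PBS day 8, AREG day 4 and AREG day 8. For Mest, Grb10, Peg3 and Igf2r only the step from the first to the next group was free of overlap, and for Plagl1 also the one after it. PBS day 8 and AREG day 4 were thus neighbours with overlapping arrays for 4 of those 5, and the difference between these groups was not tested. Igf2 ended with AREG day 8 and AREG day 4, and no neighbours in its order were apart. Dlk1 ran PBS day 8, AREG day 8, PBS day 4 and AREG day 4, with a gap only between the first of these and the next. The ranges of the 4 group means were 2.09 for Mest, 1.49 for Peg3, 1.15 for Grb10, 1.04 for Cdkn1c, 1.02 for Plagl1, 0.95 for Igf2, 0.64 for Dlk1 and 0.58 for Igf2r.

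Across the 12 arrays 8 of the 9 genes ran together and Dlk1 did not. These correlations are descriptions, since the arrays share 1 normalisation and fall into 4 groups. In the 28 pairs without Dlk1, Pearson's r of log2 intensity ranged from 0.45 to 0.98, and from 0.28 to 0.93 once the group means were removed. The closest pair over the arrays was Grb10 and Peg3, at 0.98, with 0.92 once group means were removed, where Mest and Plagl1 were closest at 0.93. In the 8 pairs with Dlk1, r ranged from -0.58 to 0.28, and from -0.14 to 0.62 within groups. Replicate 3 of AREG muscle at day 8 was the lowest of its group for all 9 genes. The values within groups rest in part on that array, and r without it was not computed. Of the pairs on the same chromosome, Peg10 and Mest, both on chromosome 6, had 0.69. On chromosome 7, Cdkn1c and Peg3 had 0.94, Igf2 and Peg3 0.85, and Igf2 and Cdkn1c 0.72.

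**Figure D3:**
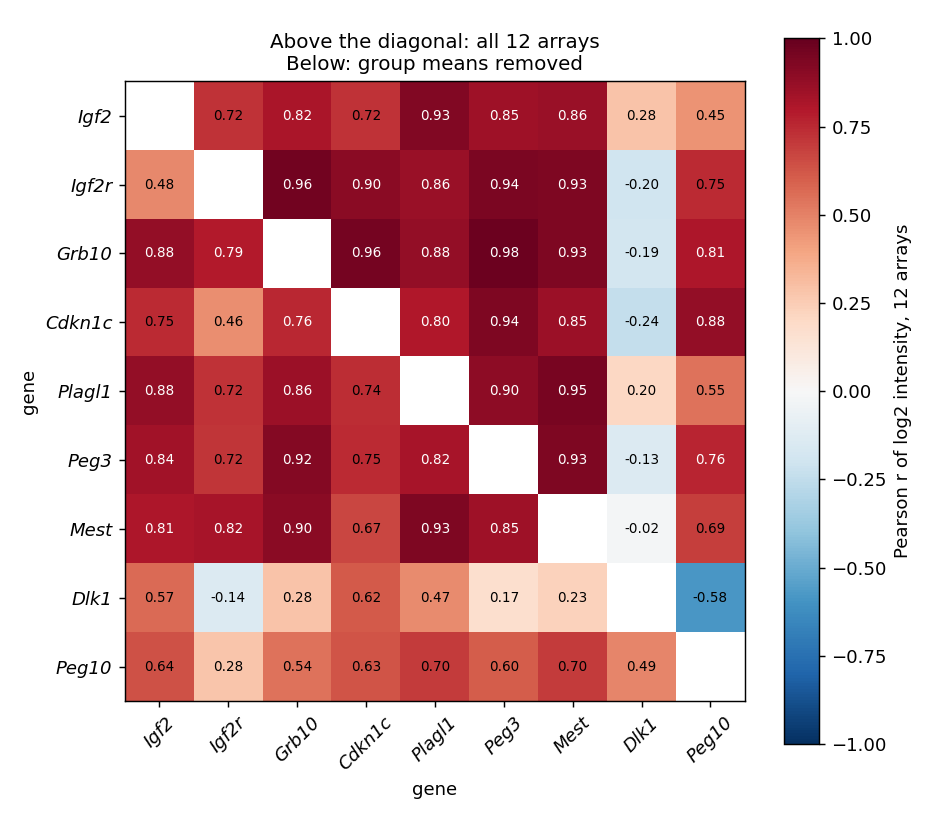
Pearson's r of log2 intensity between the 9 genes over the 12 arrays, above the diagonal as measured and below it with the 4 group means removed; both axes list the genes and colour gives r. Pairs without Dlk1 lie between 0.45 and 0.98 above the diagonal, and Dlk1 lies between -0.58 and 0.28.

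The genes also ran with the means of the marker lists. With group means removed, r was 0.93 between newly formed fibre markers and Igf2, 0.93 for Peg3 and 0.91 for Grb10, and 0.96 between fibro-adipogenic progenitor markers and Mest and 0.94 for Plagl1. Cdkn1c had 0.96 with newly formed fibre markers over the arrays and 0.73 within groups, and Peg10 had 0.90 and 0.51. Within groups, r of the 8 genes other than Dlk1 ranged from 0.51 to 0.93 with newly formed fibre markers and from 0.56 to 0.96 with fibro-adipogenic progenitor markers. High values were not limited to these 2 lists, since the range was 0.35 to 0.90 with dividing cell markers, with Grb10 highest, and 0.28 to 0.84 with macrophage markers, with Plagl1 highest. It was 0.21 to 0.67 with tenocyte markers, 0.09 to 0.65 with satellite cell and myoblast markers and -0.60 to 0.14 with endothelial markers. Dlk1 had 0.28, 0.36, 0.10 and 0.23 with newly formed fibre, fibro-adipogenic progenitor, dividing cell and macrophage markers. These values within groups rest in part on replicate 3 of AREG muscle at day 8. Its mean of fibro-adipogenic progenitor markers was 8.52, against 9.77 and 9.63 in replicates 1 and 2. The marker correlations without that array were not computed. In a search of the 9875 genes in the upper part of the level range (median or higher), those most like Peg10 over the 12 arrays were Prg4, the joint and fascia lubricant lubricin (r = 0.985), Sh3rf1, a ubiquitin ligase (0.952), and Ago2, an argonaute of small RNA silencing (0.946). With group means removed these were 0.71, 0.84 and 0.18, so the likeness of Ago2 to Peg10 lay in the differences between groups. Those most like Mest were Postn, the matrix protein periostin (0.984), Ppic, a cyclophilin (0.983), and Ccdc80, a secreted matrix protein (0.978). Within groups r stayed at 0.97 to 0.99. The log2 SD of Mest and Postn was 1.19 and 1.09 in AREG muscle at day 8, and at most 0.56 and 0.39 in the other groups. Those most like Peg3 were Pcbd1, a dehydratase and cofactor (0.9845), Ric8a, a chaperone of G protein subunits (0.982), and Grb10 (0.980), with 0.97, 0.97 and 0.92 within groups.

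Neither microRNA cluster was called in any comparison. Mir335, within Mest, had intensities of 18.7 to 21.4 in AREG muscle and 19.5 to 21.7 in PBS muscle at day 4, and 20.0 to 25.0 in AREG muscle and 18.0 to 20.6 in PBS muscle at day 8. All of these were dim for their arrays, the highest percentile being 9.22. Its changes were -0.01 ± 0.12 at day 4 (adjusted p = 0.991) and 0.25 ± 0.12 at day 8 (adjusted p = 0.652). Mir483, within Igf2, had 207 to 345 in AREG muscle and 182 to 301 in PBS muscle at day 4, and 183 to 218 in AREG muscle and 177 to 195 in PBS muscle at day 8. Its groups overlapped on both days, with changes of 0.10 ± 0.19 and 0.13 ± 0.19 (adjusted p = 0.877 and 0.905). Arrays of this type read labelled long RNA, so these clusters need not show the mature RNAs printed above, and the difference between host and microRNA gene was not tested.

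Other imprinted genes were compared through a list of 65, of which 53 were measured. At day 4, 2 of the 53 were called lower in AREG muscle and 0 higher. This share of calls was near that of all genes (2.90% in either direction), and the median change was 0.03. Groups did not overlap for 14 of the 53 with AREG lower and for 5 with AREG higher. Of all 19752 genes, 2379 had AREG lower without overlap. Of the 53, 28 lay above the array median in AREG muscle at day 4 and 27 in PBS muscle. The imprinted growth genes all lay above the median gene, so the shares called do not compare genes of like level. The 2 called lower were Zdbf2, a zinc finger gene, at -1.26 ± 0.28 (adjusted p = 0.0324), and Gatm, an enzyme of creatine synthesis, at -1.05 ± 0.25 (adjusted p = 0.03745, limma). Ddc, at -0.50 ± 0.13, and H13, at -0.39 ± 0.11, were not called (adjusted p = 0.0547 and 0.0751). The same 2 were called lower for the mean effect, and 0 of 53 at day 8 and for the difference. In PBS muscle 3 of the 53 were called lower at day 8 Foxp3-DTR+, against 1.15% of all genes. They were Ddc, an amino acid decarboxylase (-0.90 ± 0.13, adjusted p = 0.00141, limma), Zdbf2 (-1.43 ± 0.28, adjusted p = 0.0113) and Gatm (-1.16 ± 0.25, adjusted p = 0.0197). In AREG muscle 0 were called.

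In the IGF system outside the imprinted genes, 24 of 25 listed genes were measured, and 1 was called lower in AREG muscle at day 4. This was Akt1, a kinase downstream of the receptors, at -0.59 ± 0.14 (adjusted p = 0.0392, limma). Igfbp4, a protein that binds the growth factors, had -0.73 ± 0.20 (adjusted p = 0.0580). The adaptor Shc1 had -0.41 ± 0.14 (adjusted p = 0.130) and the growth factor Igf1 -0.58 ± 0.25 (adjusted p = 0.244). For the mean effect 1 was called lower, Shc1 (-0.51 ± 0.10, adjusted p = 0.0199), and in the remaining comparisons 0. Of the other CIP/KIP and INK4 cell cycle inhibitors 5 of 6 were measured, and 0 were called in any comparison. Their day 4 changes were between -0.08 and 0.11, beside -0.70 for Cdkn1c. The inhibitor not measured was Cdkn1a. Of the 5 measured, 2 lay above the array median in AREG muscle and in PBS muscle at day 4, so they are not of like level with Cdkn1c. Of 12 Notch pathway genes and relatives of Dlk1, the receptor Notch2 alone was called, lower at day 4 (-0.63 ± 0.16, adjusted p = 0.0449) and for the mean effect (-0.46 ± 0.11, adjusted p = 0.0366). Beside the 2.11% of all genes called lower at day 4 and the 2.99% called lower for the mean effect, 1 call in each of the IGF and Notch lists is no result about the list.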

How the data were processed

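RNA of whole muscle was measured on 12 Affymetrix Mouse Gene 1.0 ST arrays. The tools named in the submitters' processing notes are Affymetrix Power Tools and RMA, which corrects background, equalises the arrays and summarises probes. Their versions, the build and the annotation: not given in the sources used here. As deposited, the values are intensities on a linear scale (4.65 to 21512.5) for 24922 transcript clusters with 0 missing values. No array was identical to another. RMA can compress differences of dim genes.

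Values were taken to log2 here, with no pseudocount or filter. The gene table of the array lists 1 symbol for 21425 clusters, several for 1399 and none for 2098. Clusters with 1 symbol were used, with the highest mean over the arrays for 921 genes with several clusters, which gave 19752 genes. Of these clusters 21347 matched a RefSeq table (GRCm38.p6) by Entrez number, with 0 symbols changed.

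The fit of all genes used limma 3.58.1 (R 4.3.3; lmFit, eBayes) with 4 group means (8 residual and 7.1 prior degrees of freedom), two-sided tests, Benjamini-Hochberg adjustment over all genes and a threshold of 0.05. With 3 arrays against 3, the smallest p of an exact permutation test is 0.1, and none was run. The fitting was tested on simulated data.

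The genes, lists and comparisons were chosen with earlier results of these data known. All listed genes with their own cluster are named. Of each other list up to 4 genes with the smallest p are named, and for the 3 genes with the widest range of group means the 3 genes with the highest Pearson correlation. Zdbf2 and the other named genes of further lists follow this rule, while Ckm, Foxp3, Il2ra and Ctla4 are given as checks. Myh3 is named as an example of its marker list. Same-numbered AREG and PBS arrays deviated together at day 4 (residual correlations 0.558, 0.201 and 0.511, all over 0.1) and not at day 8 (-0.198, 0.123 and -0.003), although AREG replicate 2 also ran with PBS replicate 3 at day 4 (0.270). The labels give no source for a pairing, and values are without a block unless stated. Alternatives were the replicate block, a fit of the 2 groups compared, trend and robust options, array weights, quantile normalisation, median centring, a filter at the median level, averaging of a gene's clusters, a pseudocount of 32 and leaving out each array.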

Additional observations from a re-analysis of the deposited data

How the results depend on the processing

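The 9 genes had 4 calls at day 4, none at day 8, 5 in the mean effect, none in the difference, 4 between the PBS groups and 1 between the AREG groups. These counts stayed within 1.5 times of those values under every other setting but the following. With array weights they were 8 at day 4, 1 at day 8 (Dlk1), 9 in the mean effect, 5 in the difference, 7 between the PBS groups and 7 between the AREG groups. That fit called 5305 genes in all at day 4, against 573, and weighted arrays of 1 group as differently as 0.167 and 5.52. In a fit of the 2 groups compared, 7 were called at day 4, and with median centring 3 in the mean effect. With the replicate block, the paired fit, 6 were called at day 4, 0 at day 8, 8 in the mean effect and 0 in the difference; the comparisons between days have no paired analysis, since numbers were paired within a day. Without single arrays the counts ran from 0 to 8 at day 4, from 0 to 0 at day 8, from 0 to 8 in the mean effect, from 0 to 0 in the difference, from 2 to 6 between the PBS groups and from 1 to 1 between the AREG groups. The cause was not tested. Among all genes, day 4 calls were 914 with the block, 938 with 2 groups, 877 with quantile normalisation, 358 with the pseudocount and 9 to 1336 without single arrays. Over all genes, the mean effect had 673 calls, against 1104 with the block, 4902 with weights and 444 with median centring, and 34 to 1488 without single arrays. The PBS groups had 463, against 759 with 2 groups, 1649 with weights and 209 to 719 without single arrays, and the AREG groups 142, against 86, 6676 and 79 to 458, and 91 with the pseudocount. At day 8 there was 1 call and in the difference 0, with 1192 and 2232 under weights; the other settings gave 0 or 1. Of single changes 964 kept direction and side of the threshold, 64 lost a call, 60 gained one and 10 changed sign. The changes of sign were those of estimates near 0 or of single arrays: Peg10 at day 8 (0.082 with array weights, -0.30 to 0.12 without single arrays), Plagl1 between the AREG groups (0.11 with array weights, -0.45 to 0.27 without single arrays), Igf2 between the AREG groups (-0.026 with quantile normalisation, -0.34 to 0.49 without single arrays) and Mest in the difference (-0.082 to 1.02 without single arrays). Scaling moved the median of all genes by less than 0.1.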

Other observations

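A cluster that the array lists for both Mir675, which lies within H19, and Supt6 was assigned to neither gene. Its intensity was 2279 to 2795 in AREG muscle and 3753 to 4599 in PBS muscle at day 4, and 1541 to 1855 in AREG muscle and 2353 to 4274 in PBS muscle at day 8. AREG and PBS arrays did not overlap on either day. In a fit of all 24922 clusters the mean AREG effect was -0.80 ± 0.13 (SE, n = 3 per group, adjusted p = 0.0195, limma), with -0.68 ± 0.18 at day 4 (adjusted p = 0.0665) and -0.93 ± 0.18 at day 8 (adjusted p = 0.704). The cluster was singled out after its values were seen, and which transcript it reads cannot be told from the listing.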
